A study of Mus musculus with 16 samples.

Results

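The genes described here are 33 genes of cholesterol and fatty acid synthesis, measured in the hippocampus of 12-month-old male mice on Affymetrix arrays. A member was taken up where a probe set carried its symbol and no other, and the probe set with the highest mean over the 16 arrays stood for the gene. This gave 32 members out of 11465 genes tested; Acat2 had no such probe set and is not described. By role the 32 fall into 7 enzymes of the mevalonate arm, 10 enzymes of the sterol arm, 5 regulators, 2 genes of sterol transport and turnover and 8 genes of fatty acid synthesis. All 32 passed the filter on low values, which used values over 4 log2 on at least 4 arrays.

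Cells build cholesterol from acetyl-CoA, which is made into mevalonate, then into isoprenoids and squalene, and finally into sterols. When membrane cholesterol is low, SCAP carries the SREBP transcription factors out of the endoplasmic reticulum so that they can be cut and switch on the genes of both pathways, and the INSIG proteins hold SCAP back when sterols are plentiful. The brain makes its own cholesterol because lipoproteins do not cross the blood-brain barrier, much of it goes into myelin, and neurons dispose of the excess through CYP46A1, which makes 24S-hydroxycholesterol.

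The 4 groups had 4 mice each, with 1 array per mouse. SAMP8 mice, a senescence-accelerated strain with memory deficits at this age, were untreated, or received by the intravenous route either an antisense oligonucleotide against the amyloid-β precursor protein (AβPP antisense) or a random oligonucleotide (Random antisense). The Control mice were untreated and came from a 50% backcross of SAMP8 to CD-1, so they differ from SAMP8 in genetic background and are described by the labels as free of memory deficits. For Random antisense 1 the treatment field reads none while its title, source and description name the random oligonucleotide, and it was kept with that group. The comparison of AβPP antisense with Random antisense bears on the oligonucleotide's sequence, that of Random antisense with untreated SAMP8 on giving an oligonucleotide, and that of SAMP8 with Control on the strain. Values are the authors' deposited log2 values, and a difference is a difference between group means of log2 values.

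The arrays were not equally alike. AβPP antisense 4 and Control 4 had median correlations of 0.905 and 0.922 with the other arrays, against 0.958 to 0.989 for the remaining 14. The difference between the 3′ and 5′ probe sets of beta-actin, a sign of RNA integrity, was 3.89 log2 on AβPP antisense 4 and 0.84 to 1.60 on the other arrays. All 5 neuron markers and all 5 hippocampal neuron markers were measured; the summed level of the latter was 10.85 to 12.77 log2 in AβPP antisense and 11.41 to 12.35 over the other groups. The summed level of 6 choroid plexus markers was 10.91 to 15.29 log2 in AβPP antisense and 15.29 to 15.94 over the other groups. In whole tissue, fewer cells of a type and less RNA per cell cannot be told apart.

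None of the 32 members passed an adjusted p of 0.05 in any of the 4 comparisons or in the F test over the 4 groups, by limma with Benjamini-Hochberg adjustment over 23905 probe sets. Among all genes tested, the share passing was 0.227% between SAMP8 and Control, 0.0262% between AβPP antisense and Random antisense, 0% between Random antisense and SAMP8, and 0.0959% between AβPP antisense and SAMP8. In the F test 2 members, 6.25%, had an unadjusted p under 0.05, against 10.4% of all genes, and the smallest adjusted p of a member was 0.29, for Fdft1. The median standard error of a member's difference was 0.16 log2, and the 95% interval reached 0.35 log2 to either side at the median. The fit used an estimate of the spread shared by the 4 groups, so this interval is not that of the less variable groups alone. Differences well inside it could not be resolved in this fit.

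**Figure D1:**
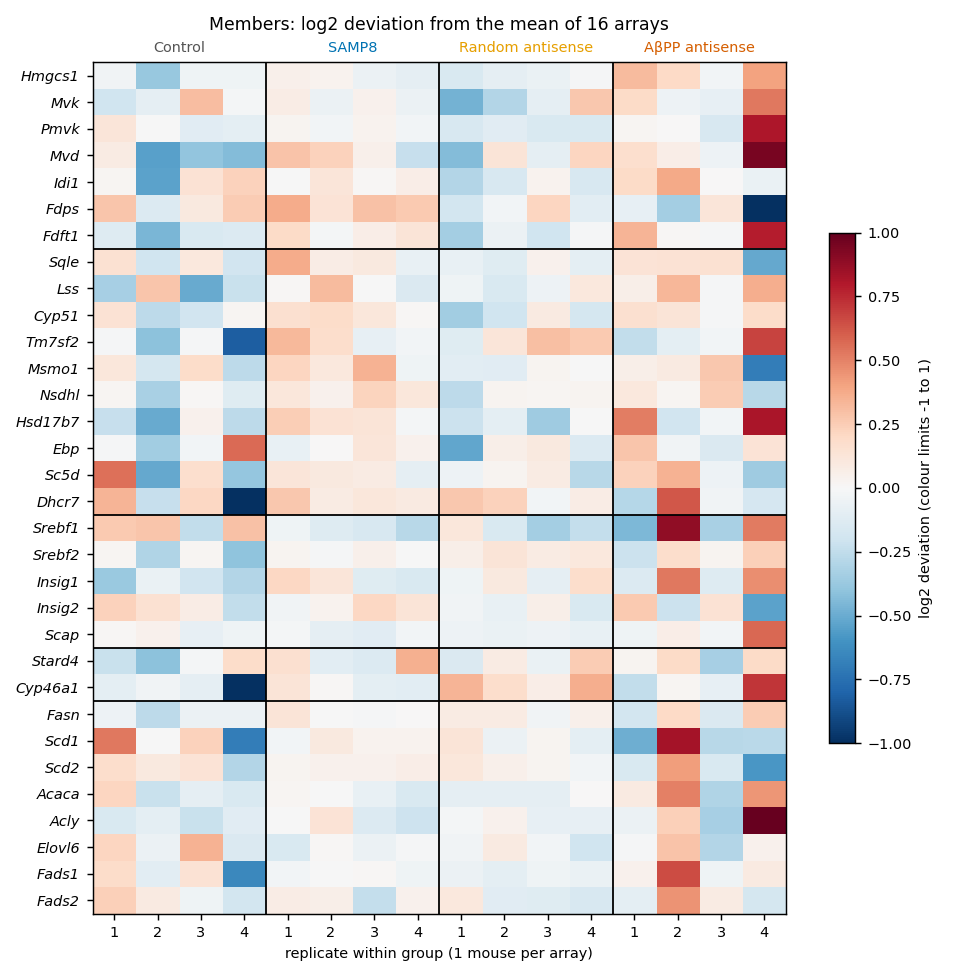
Each cell is 1 member (row) on 1 array (column), coloured by its log2 value minus that gene's mean over the 16 arrays, with rows grouped by role and colours ending at 1 log2 to either side. The even SAMP8 and Random antisense columns stand beside uneven Control and AβPP antisense columns, where Control 2 is low for most sterol enzymes, though not Lss, and AβPP antisense 4 is high for some members and low for others.

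The 3 promoters below are shown because Hmgcs1, Cyp51 and Hsd17b7 were 3 of the 4 members with an unadjusted p under 0.05 between AβPP antisense and Random antisense; the fourth is Fdft1. Without AβPP antisense 4, or without Random antisense 1, Hmgcs1 alone of these had such a p. Each is the 250 bases before a RefSeq start site, on the strand of the gene, from RefSeq on GRCm38.p6: chr13:119690101-119690350 on the plus strand for Hmgcs1, chr5:4104698-4104947 on the minus strand for Cyp51 and chr1:169969206-169969455 on the minus strand for Hsd17b7. Capitals mark matches to a sterol regulatory element (TCACNCCAC), the kind of site that SREBPs bind, and to the CCAAT box (CCAAT), where NF-Y binds beside them, each on either strand.
Hmgcs1: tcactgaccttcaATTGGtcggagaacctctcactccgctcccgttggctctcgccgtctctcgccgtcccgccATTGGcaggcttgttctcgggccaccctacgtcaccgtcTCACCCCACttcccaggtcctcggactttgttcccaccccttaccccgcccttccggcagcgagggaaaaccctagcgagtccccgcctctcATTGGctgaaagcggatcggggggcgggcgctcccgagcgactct
Cyp51: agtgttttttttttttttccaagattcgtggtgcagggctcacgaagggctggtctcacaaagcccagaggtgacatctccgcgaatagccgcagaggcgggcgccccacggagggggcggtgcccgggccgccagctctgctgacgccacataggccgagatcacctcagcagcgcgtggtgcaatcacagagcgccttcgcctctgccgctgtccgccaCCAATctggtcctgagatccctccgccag
Hsd17b7: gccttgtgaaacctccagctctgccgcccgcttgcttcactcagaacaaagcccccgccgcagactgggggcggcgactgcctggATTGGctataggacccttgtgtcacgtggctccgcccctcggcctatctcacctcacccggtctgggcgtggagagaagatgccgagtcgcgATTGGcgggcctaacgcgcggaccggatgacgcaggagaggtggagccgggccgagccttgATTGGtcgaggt
The Hmgcs1 window holds 1 sterol regulatory element, beginning 137 bases before the start, and 3 CCAAT boxes on the reverse strand, with no overlap between the motifs. The Cyp51 window holds 1 CCAAT box and the Hsd17b7 window 3. Over the 25 members found in the RefSeq promoter table, with 33 windows, the sterol element was in 1 window (3.03%), against 1.05% of all 32851 windows of the same length. The CCAAT box was in 21 of the 33 windows (63.6%), belonging to 20 members, against 33.8% of all windows. The 7 other members had no entry. Only these fixed patterns were searched, so a window without a match may still hold another form of the element. A match is a description of the letters and not evidence of binding.

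In the mevalonate arm, Hmgcs1 makes HMG-CoA, the substrate of the step that statins block. It measured 12.72, 12.37, 12.71 and 12.71 log2 on the 4 Control arrays, 12.80, 12.79, 12.69 and 12.66 in SAMP8, 12.60, 12.66, 12.68 and 12.74 in Random antisense, and 13.07, 12.95, 12.72 and 13.16 in AβPP antisense. Of the AβPP antisense arrays 3 lay above every other array and the fourth lay among the others, so the groups overlapped. The difference from Random antisense was 0.30 log2 (SE 0.11, limma adjusted p = 0.321), and 0.24 (limma adjusted p = 0.267) without the 2 least correlated arrays. Its 3 other tested probe sets gave -0.13, -0.10 and -0.55, and the mean over its probe sets gave -0.12, which turns the direction. Between SAMP8 and Control the difference was 0.11, and Control 2 was the lowest of the 16 arrays.

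Fdft1, squalene synthase, commits the pathway to sterols. It measured 11.19, 10.87, 11.18 and 11.19 log2 in Control and 11.52, 11.31, 11.39 and 11.46 in SAMP8, so that every SAMP8 array lay above every Control array. The Random antisense arrays were at 10.98, 11.27, 11.12 and 11.31 and the AβPP antisense arrays at 11.66, 11.34, 11.31 and 12.12. The highest value of all was on AβPP antisense 4. The differences were 0.31 log2 between SAMP8 and Control (95% interval -0.03 to 0.65, limma adjusted p = 0.999) and 0.43 between AβPP antisense and Random antisense (0.09 to 0.78, limma adjusted p = 0.310). Without the 2 least correlated arrays they were 0.34 and 0.26 (limma adjusted p = 0.539 and 0.291). Its other tested probe set differed by 0.09 log2 between AβPP antisense and Random antisense, and the one used is of the x_at class, whose probes can also match other sequences.

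Fdps makes farnesyl pyrophosphate, the last intermediate shared with protein prenylation, and it was the member of this arm with a lower mean in AβPP antisense than in Random antisense or SAMP8. It measured 9.56, 9.15, 9.39 and 9.54 log2 in Control, 9.66, 9.42, 9.58 and 9.54 in SAMP8, 9.10, 9.26, 9.50 and 9.18 in Random antisense, and 9.20, 8.95, 9.40 and 8.13 in AβPP antisense. All 4 AβPP antisense arrays lay below all 4 SAMP8 arrays, with AβPP antisense 4 the lowest of the 16. The difference from SAMP8 was -0.63 log2 (SE 0.21, 95% interval -1.09 to -0.17, limma adjusted p = 0.204), the smallest adjusted p of any member in the 4 comparisons. Without AβPP antisense 4 and Control 4 it was -0.36 (limma adjusted p = 0.173), and without AβPP antisense 3 it was -0.79 and passed the threshold (limma adjusted p = 0.0431), in a fit where 1.98% of all genes passed. Against Random antisense, which overlapped, the difference was -0.34 (limma adjusted p = 0.548), and -0.08 without the 2 least correlated arrays.

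The 4 remaining enzymes of this arm carry mevalonate to the isoprene units. Mvk and Pmvk phosphorylate mevalonate, Mvd decarboxylates it and Idi1 isomerises the product. They differed by 0.30, 0.31, 0.33 and 0.27 log2 between AβPP antisense and Random antisense, with none passing the test. AβPP antisense 4 was the highest of the 16 arrays for Mvk, Pmvk and Mvd, at 5.93, 9.83 and 7.02 log2. Without the 2 least correlated arrays the differences of Mvk, Pmvk, Mvd and Idi1 were 0.17, 0.10, 0.11 and 0.33. Between SAMP8 and Control the differences of Mvk and Pmvk were 0.00 and 0.02, and that of Mvd was 0.40 (limma adjusted p = 0.999). Pmvk was lower on every Random antisense array (8.86 to 8.91) than on every SAMP8 array (8.99 to 9.05).

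In the sterol arm, Sqle oxidises squalene in the first oxygen-dependent step. It measured 9.38, 9.03, 9.34 and 9.04 log2 in Control, 9.60, 9.31, 9.33 and 9.15 in SAMP8, 9.15, 9.11, 9.27 and 9.13 in Random antisense, and 9.36, 9.37, 9.38 and 8.72 in AβPP antisense. The groups overlapped throughout, and AβPP antisense 4 was the lowest of all arrays. Its differences ran from -0.18 log2 between Random antisense and SAMP8 to 0.15 between SAMP8 and Control. Cyp51 removes the 14-alpha methyl group of lanosterol, the step that azole antifungals block in fungi. It measured 9.47, 9.06, 9.13 and 9.34 in Control, 9.48, 9.50, 9.43 and 9.33 in SAMP8, 8.97, 9.12, 9.41 and 9.14 in Random antisense, and 9.48, 9.44, 9.30 and 9.50 in AβPP antisense. Random antisense 3 lay within the range of the SAMP8 and AβPP antisense arrays, and its 3 other arrays lay below all 8 of them. Cyp51 was -0.28 log2 in Random antisense relative to SAMP8 (SE 0.12, limma adjusted p = 1.00) and 0.27 in AβPP antisense relative to Random antisense (limma adjusted p = 0.381); both differences use the same Random antisense arrays. The other tested Cyp51 probe set differed by -0.04 log2 in the second of these.

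Hsd17b7 reduces the 3-keto group during the removal of the methyl groups at carbon 4. It measured 7.98, 7.70, 8.25 and 7.95 log2 in Control, 8.45, 8.36, 8.34 and 8.19 in SAMP8, 7.99, 8.11, 7.86 and 8.21 in Random antisense, and 8.72, 8.02, 8.19 and 9.03 in AβPP antisense. AβPP antisense 1 and 4 lay above every other array and the other 2 of that group lay among the rest. The differences were 0.36 between SAMP8 and Control, -0.29 between Random antisense and SAMP8, and 0.45 between AβPP antisense and Random antisense (SE 0.19, limma adjusted p = 0.375). The last was 0.27 without the 2 least correlated arrays (limma adjusted p = 0.453). This gene too was read by a probe set of the x_at class.

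Dhcr7 makes cholesterol from 7-dehydrocholesterol in the final step. It measured 8.39, 7.82, 8.25 and 6.49 log2 in Control, 8.31, 8.13, 8.16 and 8.13 in SAMP8, 8.32, 8.27, 8.01 and 8.12 in Random antisense, and 7.76, 8.67, 8.01 and 7.88 in AβPP antisense. Control 4 stood far below every other array, and the other groups overlapped. The difference between SAMP8 and Control was 0.45 (SE 0.32, limma adjusted p = 0.999), the highest of any member in that comparison, and 0.03 without the 2 least correlated arrays. Tm7sf2, a sterol reductase, gave 0.41 in the same comparison and 0.25 without those arrays; Control 4 was its lowest array, at 6.86. On Control 4 the summed level of 5 leukocyte markers was 15.26 log2, against 11.53 to 11.83 in the other Control arrays, and the part of this in the Dhcr7 and Tm7sf2 values was not tested.

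The remaining sterol enzymes are Lss, which closes the sterol rings, Msmo1 and Nsdhl, which remove methyl groups at carbon 4, Ebp, which shifts a double bond, and Sc5d, a desaturase. Nsdhl was higher on every SAMP8 array (9.21 to 9.40) than on every Control array (8.85 to 9.19), by 0.23 log2, and was lower on every Random antisense array (8.91 to 9.20) than on every SAMP8 array, with a difference of -0.17, and neither passed the test. Msmo1 differed by -0.23 log2 between AβPP antisense and SAMP8 (limma adjusted p = 0.587) and by -0.02 without the 2 least correlated arrays. Its value on AβPP antisense 4 was 9.99, the lowest of the 16. The differences of Lss, Ebp and Sc5d ran from -0.15 to 0.24 over the 4 comparisons.

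Taking the 17 sterol synthesis enzymes of both arms together, 16 had a higher mean in SAMP8 than in Control, with a median difference of 0.19 log2, against 60.2% of all genes and a median of 0.04. Without Control 4 and AβPP antisense 4 the count was 14 of 17 and the median 0.17, against 51.4% of all genes, and without Control 2 it was 13 of 17 with a median of 0.13. On Control 2 the median deviation from the means over the 16 arrays was -0.38 log2 for the mevalonate enzymes and -0.29 for the sterol arm. Relative to SAMP8, 1 of the 17 had a higher mean in Random antisense, with a median of -0.15, against 46.6% of all genes and -0.01. Relative to Random antisense, 13 of the 17 had a higher mean in AβPP antisense, with a median of 0.22 and 56.8% of all genes higher. Relative to SAMP8, 9 of the 17 did so, with a median of 0.04 and 55.2% of all genes higher. SAMP8 arrays enter 3 of these comparisons, and Random antisense and AβPP antisense arrays 2 each, so the counts are not independent of each other. The set was chosen with earlier results of these data known and these counts carry no test.

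**Figure D2:**
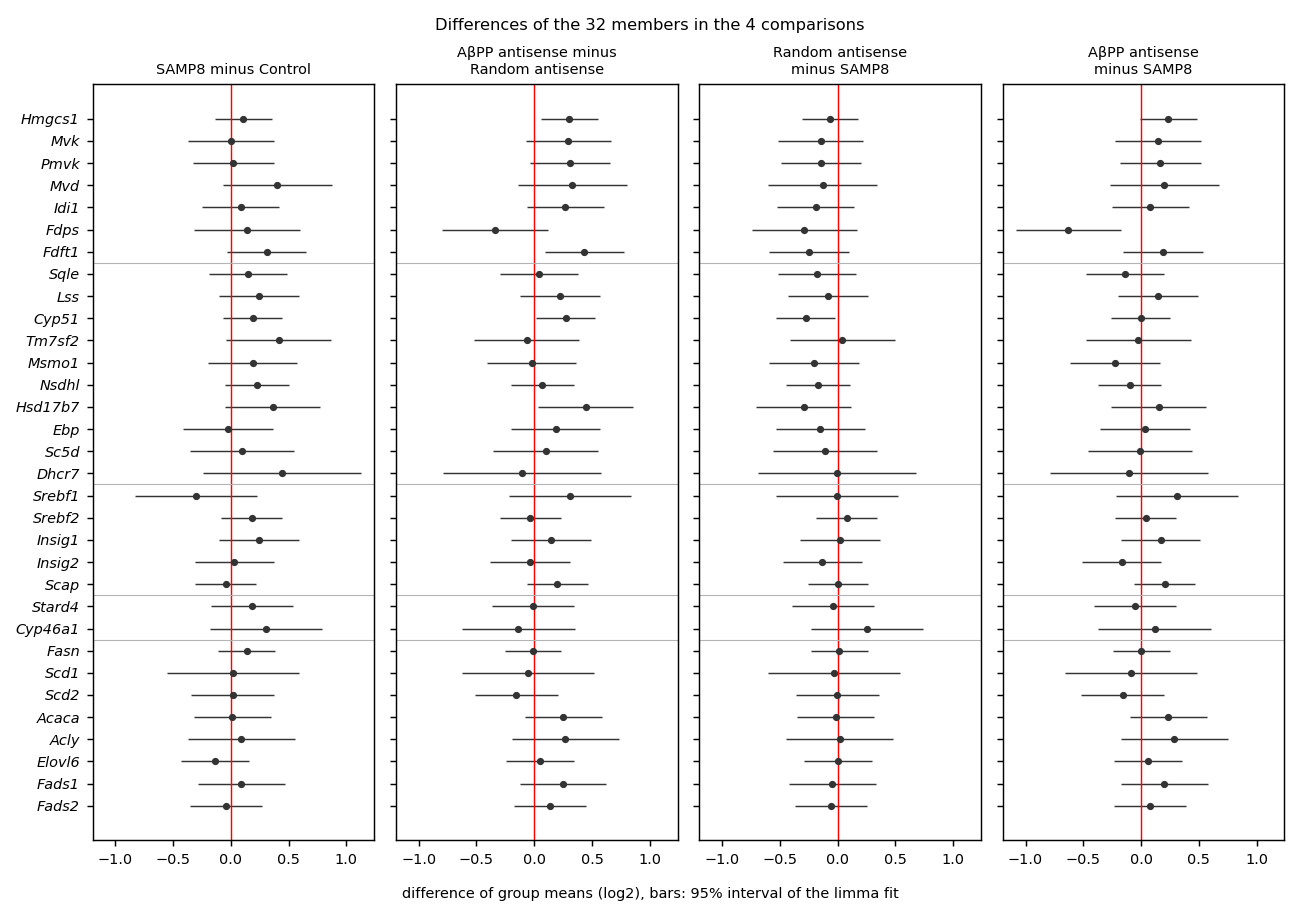
Each point is the difference between group means (log2) of 1 member in 1 of the 4 comparisons, and the bar is its 95% interval from limma. The points of the sterol synthesis enzymes lie mostly right of 0 for SAMP8 minus Control and mostly left of 0 for Random antisense minus SAMP8, and the bars exclude 0 for 4 members in AβPP antisense minus Random antisense, for Cyp51 in Random antisense minus SAMP8 and for Fdps in AβPP antisense minus SAMP8.

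By single genes, 4 members had an unadjusted p under 0.05 and a higher mean in AβPP antisense than in Random antisense, which is 12.5% of members, against 5.75% of all genes. None was lower at that level, against 3.09% of genes. These counts depended on single arrays and on the probe sets used. Of the 4 higher members Hmgcs1 alone was left without AβPP antisense 4 (4.77% of genes) or without Random antisense 1 (3.53%). Without AβPP antisense 3, 7 were higher and Fdps lower (9.32% and 4.98%). Without the 2 least correlated arrays they were Hmgcs1, Idi1 and Fdft1 on the higher side (9.23%) and Cyp46a1 on the lower (5.87%). With the mean over each member's tested probe sets, Idi1, Fdft1 and Hsd17b7 were higher (5.74%). In that setting 4 members, Srebf2, Stard4, Scd2 and Acly, were lower (3.12%). With array weights there were 0 in either direction, against 5.49% of genes higher and 5.01% lower. With the beta-actin covariate it was Cyp46a1 alone, on the lower side (4.26%), with 0 members higher (4.83%). In Random antisense relative to SAMP8 it was Cyp51 alone on the lower side (0.654% of genes), with 0 members and 0.384% of genes on the higher side. With array weights 7 members were lower there (9.33% of genes) and 1 higher (7.24%). With only the 8 arrays compared 7 were lower (7.63%) and 1 higher (6.37%). With the beta-actin covariate 4 were lower (1.56%) and 0 higher (0.907%). Without the 2 least correlated arrays 3 were lower (3.05%) and 1 higher (2.49%). Leaving out single arrays gave 0 to 2 members with such a p, all lower, against 0.244% to 1.42% of genes. On the higher side it gave 0 members, against 0.201% to 0.959% of genes. In AβPP antisense relative to SAMP8 it was Fdps alone on the lower side (4.42% of genes), with 0 members and 5.57% of genes on the higher side. With the mean over probe sets, Fdps, Stard4, Scd2 and Acly were lower there (4.45%) and 0 members higher (5.57%). Between SAMP8 and Control it was 0 members in either direction, against 2.34% of genes higher and 1.43% lower. Without AβPP antisense 4, which enters this comparison only through the shared estimate of the spread, it was Mvd, Fdft1, Tm7sf2 and Hsd17b7 on the higher side (3.44% of genes). With array weights it was 5 members higher and 1 lower (4.76% and 3.64% of genes), and with the beta-actin covariate 5 higher (3.33%). Groups that did not overlap were seen for Fdft1, Nsdhl and Fasn, all higher in SAMP8 than in Control (2.99% of genes), and for Scap, higher in AβPP antisense than in Random antisense (4.69%). In these comparisons 0 members were lower in this sense, against 1.53% and 2.26% of genes. Srebf2 was higher in Random antisense than in SAMP8 in this sense (4.21%), and Pmvk, Nsdhl and Fads1 were lower (4.86%). For Fads1 the highest Random antisense array and the lowest SAMP8 array were both at 10.996 log2 to 3 decimals. Fdps was lower in AβPP antisense than in SAMP8 (2.88%), and 0 members were higher (4.05%). Each of these is 1 to 3 members out of 32.

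Among the regulators, Srebf1 encodes SREBP-1, which mainly drives fatty acid synthesis, and Srebf2 encodes SREBP-2, which mainly drives sterol synthesis. Srebf1 measured 9.12, 9.13, 8.60 and 9.15 log2 in Control, 8.81, 8.72, 8.69 and 8.58 in SAMP8, 8.96, 8.70, 8.51 and 8.61 in Random antisense, and 8.40, 9.74, 8.53 and 9.37 in AβPP antisense. The AβPP antisense arrays split into a high pair, replicates 2 and 4, and a low pair. Its differences were -0.30 between SAMP8 and Control and 0.31 between AβPP antisense and each of the other SAMP8 groups (SE 0.25 in each, limma adjusted p = 0.585 to 0.999). Srebf2 measured 8.51, 8.18, 8.51 and 8.09 in Control, 8.51, 8.48, 8.54 and 8.49 in SAMP8, 8.54, 8.61, 8.57 and 8.59 in Random antisense, and 8.27, 8.67, 8.51 and 8.73 in AβPP antisense. The SAMP8 and Random antisense values lay close together and did not overlap, but differed by 0.08 log2 only (limma adjusted p = 1.00). On the other tested Srebf2 probe set these groups overlapped, at 8.50 to 8.61 in SAMP8 and 8.45 to 8.70 in Random antisense.

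Insig1, itself a target of the SREBPs and the retention partner of SCAP, measured 9.39, 9.69, 9.57 and 9.47 log2 in Control and 9.97, 9.88, 9.64 and 9.61 in SAMP8. It was at 9.72, 9.86, 9.67 and 9.94 in Random antisense and at 9.62, 10.29, 9.63 and 10.23 in AβPP antisense. As with Srebf1, AβPP antisense 2 and 4 were high and the other replicates of that group lay among the untreated arrays. The difference between SAMP8 and Control was 0.24 (limma adjusted p = 0.999). Insig2, the second INSIG gene, differed by -0.17 between AβPP antisense and SAMP8, by -0.02 there without AβPP antisense 4, and by 0.03 between SAMP8 and Control. With array weights and with the beta-actin covariate the first of these was above 0. Scap, the SREBP escort, was at 9.98 to 10.60 log2 in AβPP antisense and at 9.95 to 9.98 in Random antisense, so that the groups touched to 2 decimals. The difference was 0.20 (limma adjusted p = 0.536) and 0.06 without the 2 least correlated arrays.

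Cyp46a1, the neuronal enzyme that turns cholesterol into 24S-hydroxycholesterol, measured 9.92, 9.99, 9.93 and 8.97 log2 in Control, 10.15, 10.03, 9.93 and 9.91 in SAMP8, 10.37, 10.20, 10.09 and 10.38 in Random antisense, and 9.78, 10.04, 9.94 and 10.73 in AβPP antisense. Control 4 was far below every other array and AβPP antisense 4 was the highest. The difference between SAMP8 and Control was 0.30 (SE 0.23, limma adjusted p = 0.999) and 0.06 without the 2 least correlated arrays. Between AβPP antisense and Random antisense it was -0.14 (limma adjusted p = 0.850) and -0.34 without them (limma adjusted p = 0.122). The summed level of the neuron markers was 15.55 log2 on Control 4 and 15.38 on AβPP antisense 4, the lowest values of their groups, and its part in these differences was not tested. Stard4, which moves sterols between membranes, differed by 0.19 between SAMP8 and Control and by -0.01 between AβPP antisense and Random antisense.

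In fatty acid synthesis, Fasn is the synthase that makes palmitate. It measured 10.26, 10.06, 10.25 and 10.26 log2 in Control, 10.44, 10.31, 10.30 and 10.32 in SAMP8, 10.40, 10.40, 10.28 and 10.36 in Random antisense, and 10.13, 10.51, 10.17 and 10.57 in AβPP antisense. Every SAMP8 array lay above every Control array, by 0.14 log2 between the means (SE 0.11, limma adjusted p = 0.999). The AβPP antisense arrays again split into replicates 2 and 4 above and 1 and 3 below. The other 3 differences of Fasn lay between -0.01 and 0.02.

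The desaturases Scd1 and Scd2 put the first double bond into saturated fatty acids, and Scd2 is the main form in brain. Scd1 measured 12.57, 12.03, 12.27 and 11.35 log2 in Control, 12.01, 12.13, 12.07 and 12.07 in SAMP8, 12.16, 11.98, 12.06 and 11.94 in Random antisense, and 11.55, 12.87, 11.76 and 11.77 in AβPP antisense. AβPP antisense 2 was the highest array and Control 4 the lowest, and the 8 SAMP8 and Random antisense arrays lay from 11.94 to 12.16. Scd2 measured 14.75, 14.67, 14.71 and 14.28 in Control, 14.60, 14.62, 14.62 and 14.64 in SAMP8, 14.68, 14.62, 14.60 and 14.55 in Random antisense, and 14.42, 14.99, 14.42 and 13.99 in AβPP antisense. Its difference between AβPP antisense and Random antisense was -0.16 (limma adjusted p = 0.750) and 0.00 without the 2 least correlated arrays. Between SAMP8 and Control it was 0.02. Another tested Scd2 probe set measured 10.76, 10.97, 10.75 and 11.46 in Control and 10.14, 9.99, 10.20 and 10.31 in SAMP8. These did not overlap, and the difference did not pass the test. The remaining tested Scd2 probe set overlapped, at 12.19 to 12.89 in Control and 12.47 to 12.63 in SAMP8.

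Of the other fatty acid genes, Acly supplies cytosolic acetyl-CoA, Acaca makes malonyl-CoA, Elovl6 elongates palmitate, and Fads1 and Fads2 desaturate polyunsaturated fatty acids. Acly was at 12.66 log2 on AβPP antisense 4 and at 11.26 to 11.83 on the 15 others. Fads1 was at 11.69 on AβPP antisense 2 and at 10.39 on Control 4, with the rest between 10.93 and 11.22. Their group differences ran from -0.14, for Elovl6 between SAMP8 and Control, to 0.29, for Acly between AβPP antisense and SAMP8, which was 0.00 without AβPP antisense 4. For the 8 genes the median difference between SAMP8 and Control was 0.02, with 6 of 8 higher in SAMP8, and -0.09 with 2 of 8 higher without Control 4. Between AβPP antisense and Random antisense it was 0.09, with 5 of 8 higher, and -0.02 with 4 of 8 higher without AβPP antisense 2.

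The spread within groups was uneven. The median SD of a member was 0.218 log2 in Control, 0.0882 in SAMP8, 0.121 in Random antisense and 0.346 in AβPP antisense, against 0.276, 0.111, 0.107 and 0.338 for all genes. AβPP antisense had the largest SD of the 4 groups for 21 of the 32 members, against 57.5% of all genes. AβPP antisense 4 was the highest of the 16 arrays for 13 members and the lowest for 5, against 25.5% and 18.7% of genes. AβPP antisense 2 was the highest for 9 members and the lowest for 0, against 13.8% and 8.64% of genes. On this array the fatty acid genes lay 0.44 log2 above their means over the 16 arrays at the median, and the summed level of 7 astrocyte markers was its highest, at 16.34 log2 against 15.80 to 16.21 on the others. Control 2 was the lowest array for 9 members, against 6.94% of genes. The part of cell composition and RNA quality in these deviations was not tested.

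**Figure D3:**
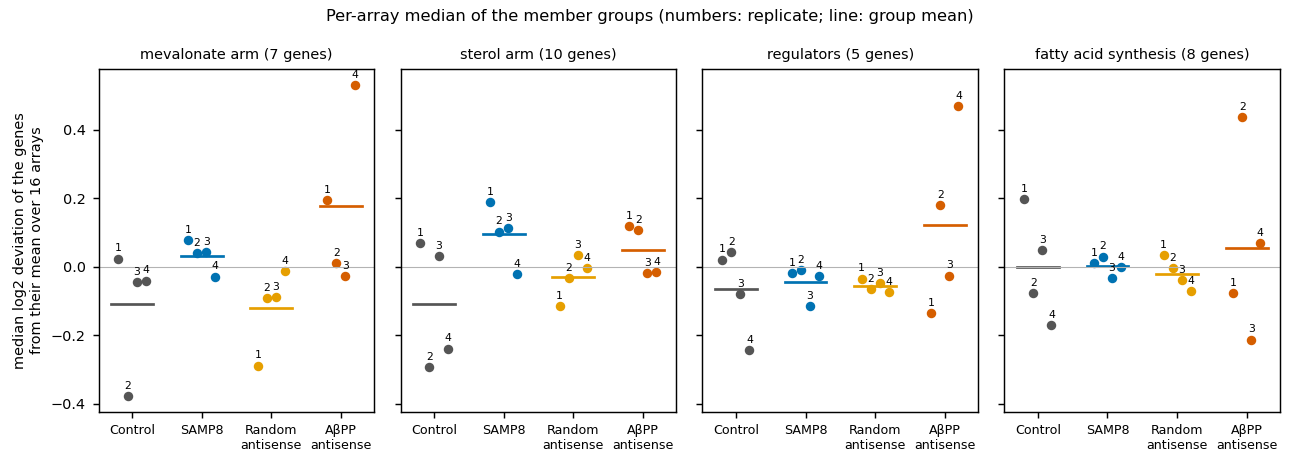
Each point is 1 array, placed by the median over the members of 1 role of its log2 value minus the gene's mean over the 16 arrays; numbers are replicates and lines group means. Control 2 is low for both arms of sterol synthesis, AβPP antisense 4 is highest for the mevalonate arm at 0.53 log2 and AβPP antisense 2 is highest for fatty acid synthesis.

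The members' other probe sets gave a different picture from the ones used above. The 32 members have 73 probe sets, of which 58 were tested, 26 of them besides the main one, in 17 members. Of the 26, in AβPP antisense minus Random antisense, 13 had the sign of the main probe set and 21 gave a lower difference than it. Their median difference was -0.12 log2, against 0.14 for the main probe sets of the same 17 genes, and without AβPP antisense 4 it was -0.05 against 0.16, with 22 of 26 lower. The same contrast was not computed over the probe sets of all genes, so it cannot be called particular to the members. The smallest adjusted p of any of the 26, over the 4 comparisons, was 0.131 by limma.

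In AβPP antisense minus Random antisense the disagreement was widest for Scd2. Its probe sets gave -0.16, -1.18 and -1.64 log2, and 0.00, -0.30 and -0.88 without AβPP antisense 4. The Stard4 probe sets gave -0.01, 0.05 and -1.18, the last -0.76 without that array, and those of Acly gave 0.27, -0.22 and -0.96, which became -0.01, -0.08 and -0.37. The main Hmgcs1 probe set gave 0.30 and its 3 others -0.13, -0.10 and -0.55; without AβPP antisense 4 these were 0.24, 0.01, 0.05 and 0.02. For Srebf2 the values were -0.04 and -0.58 (-0.10 and -0.24 without that array) and for Insig2 -0.04, 0.12 and -0.78 (0.11, 0.17 and -0.37). For Scd1 they were -0.05 and -0.88 (0.02 and -0.89). For Fads2 they were 0.14, 0.50 and -0.65 (0.22, 0.20 and -0.17), and 0.50 was the highest of the 26 other probe sets. AβPP antisense 4 was the lowest of the 16 arrays for 12 of the 26 other probe sets, for 5 of the 32 main ones and for 25.5% of all tested probe sets. The beta-actin probe sets of the 3′ and 5′ ends differed most on that array, as given above, and the part of this in the probe sets' disagreement was not tested.

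**Figure D4:**
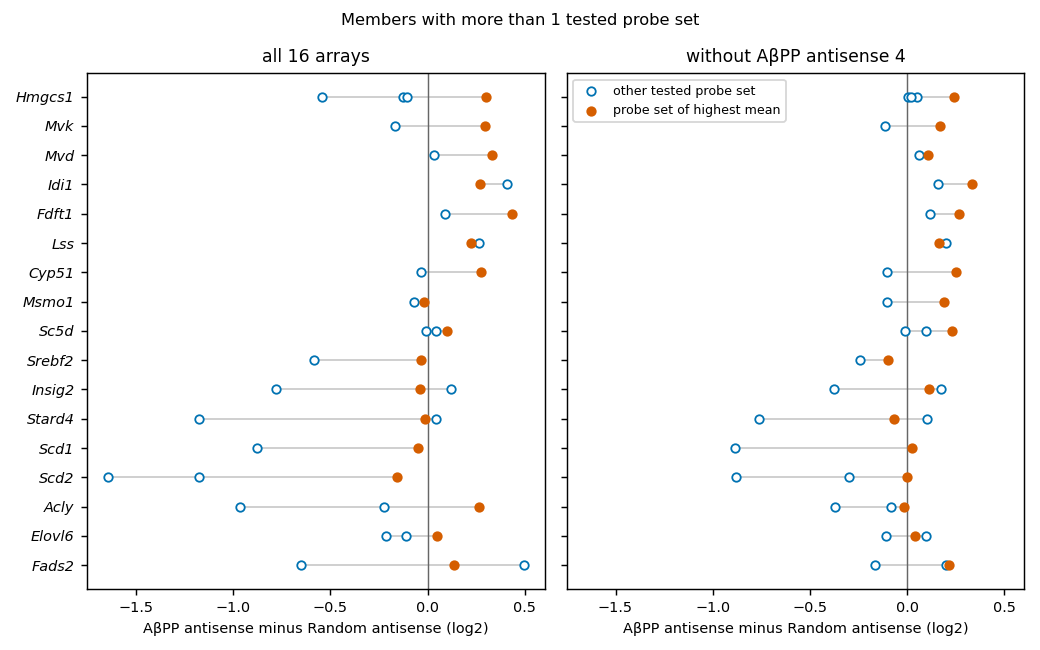
For each member with more than 1 tested probe set, the difference between AβPP antisense and Random antisense (log2) is shown for the main probe set (filled) and the others (open), over all 16 arrays and without AβPP antisense 4. Over all arrays the others lie lower in 21 of 26 cases, down to -1.64 log2 for Scd2.

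In 4 further lists of the pathway's genes no gene passed the test in either direction in any comparison, and the gene of smallest p in each direction over the 4 comparisons is given for each list. Of 10 other sterol and isoprenoid enzymes 6 were tested. Fdx1, a ferredoxin that feeds electrons to mitochondrial P450 enzymes, differed by 0.41 log2 between AβPP antisense and Random antisense (limma adjusted p = 0.313), and Dhdds, which acts in dolichol synthesis, by -0.31 between AβPP antisense and SAMP8 (limma adjusted p = 0.272). Of 19 genes of sterol uptake, storage and export 13 were tested. Here Lrp8, an apolipoprotein E receptor, differed by 0.29 between AβPP antisense and SAMP8 (limma adjusted p = 0.375) and Mylip, a ubiquitin ligase of the LDL receptor family, by -0.63 (limma adjusted p = 0.273). Of 21 other fatty acid genes 20 were tested, and 16 of these had a higher mean in SAMP8 than in Control, with a median of 0.13 log2, against 60.2% of all genes and 0.04. The elongase Elovl2, which acts on precursors of docosahexaenoic acid, differed by 0.59 between AβPP antisense and SAMP8 (limma adjusted p = 0.166), and the elongase Elovl7 by -0.80 (limma adjusted p = 0.367). Of 8 genes of SREBP processing 7 were tested. Erlin2, which takes part in the degradation of HMG-CoA reductase, had the smallest p in both directions. It differed by 0.29 between AβPP antisense and Random antisense (limma adjusted p = 0.309) and by -0.35 between Random antisense and SAMP8 (limma adjusted p = 1.00), which share the Random antisense arrays.

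The markers of myelin-forming cells, astrocytes and other cells of the tissue were set beside the members. The 7 oligodendrocyte markers tested had a summed level of 15.96 to 16.47 log2 in Control, 16.27 to 16.32 in SAMP8, 16.17 to 16.36 in Random antisense and 15.88 to 16.37 in AβPP antisense. In AβPP antisense 1 of the 7 was higher than in Random antisense, with a median of -0.25 log2. Of the 17 sterol enzymes, by their main probe sets, 13 were higher, against 56.8% of all genes. The 7 astrocyte markers had a summed level of 15.81 to 16.07 in Control and 15.80 to 16.34 in AβPP antisense, with 5 of 7 higher in AβPP antisense than in Random antisense and a median of 0.04. Of the 6 choroid plexus markers 0 were higher in AβPP antisense than in Random antisense or SAMP8, with medians of -2.43 and -2.76 log2, and 4 of 6 passed the test against SAMP8. In AβPP antisense relative to Random antisense 5 of 6 microglia markers were higher (median 0.42 log2), 4 of 5 endothelial and mural markers (0.40), 4 of 5 leukocyte markers (0.30) and 3 of 3 blood cell markers (3.38). The neuron markers were higher in 1 of 5 (-0.24) and the hippocampal neuron markers in 1 of 5 (-0.52). The summed level of the microglia list was 12.69 to 12.78 log2 in AβPP antisense and 12.16 to 12.43 in Random antisense, that of the endothelial and mural list 11.70 to 11.91 and 11.02 to 11.51, and that of the blood cell list 6.90 to 10.50 and 5.48 to 5.75. Pecam1 of the endothelial list and Hba-a1 of the blood list did not pass the filter on low values. Outside the choroid plexus list no marker passed the test in any comparison. The part of cell composition in the members' differences was not tested.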

How the data were processed

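RNA from the hippocampus of 16 mice was measured on 1-colour Affymetrix arrays. The values are the authors' deposited log2 values, made with GCRMA per the submitters' processing notes (version not given in the sources used here); normalization was not repeated. The 64 control probe sets were removed. A probe set was tested where it exceeded 4 log2 on at least 4 arrays, which kept 23905 of 45037. Gene symbols came from GEO's annotation of the platform: 34945 probe sets carry 1 symbol, 932 several and 9160 none. Groups came from the titles. limma 3.58.1 in R 4.3.3 fitted a one-way layout of 4 groups (12 residual degrees of freedom); p-values were adjusted by Benjamini and Hochberg's method over all tested probe sets, at a threshold of 0.05. The script was tested on simulated data. Figures used Python 3.11.15 and matplotlib 3.10.9. The number of arrays limits the precision. With 1 array per mouse, the p-values set each difference against a spread in which mouse, sample and array differences are mixed.

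The members and lists were chosen with earlier results of these data known. The rule named the 3 members of smallest p in each direction of a comparison, since fewer than 6 passed in any, and Hmgcs1, Sqle, Dhcr7, Srebf1, Srebf2, Insig1, Cyp46a1, Fasn, Scd1 and Scd2 whatever their result. Other members and the probe sets with the widest disagreement were described after their values were seen. In each other list the gene of smallest p in each direction over the comparisons was named. Alternatives covered the filter, scaling, arrays fitted, array weights, a beta-actin covariate, the variance model, the replicate block, the treatment label of Random antisense 1 and the mean over a member's probe sets. Marker lists for 9 cell types were summed on the linear scale and put back to log2.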

Additional observations from a re-analysis of the deposited data

Results flagged for a closer look

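For the 20 members named by rule or whatever their result, 80 groups of 4 arrays were examined for an array standing apart from the 3 others, by Dixon's ratio of the gap to the range at its 95% critical value. The median over the members was examined in its 4 groups as well, and none stood apart. Such gaps were found in 10 of the 84, where chance gives about 1 in 20 for independent groups. The members share the same arrays, and some were named for a small p. The share over all genes was not computed, so the count cannot be called particular to the members.

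Control 2 was apart and low for 3 members: Hmgcs1 at 12.37 log2 with the others at 12.71 to 12.72, Fdft1 at 10.87 with the others at 11.18 to 11.19, and Fasn at 10.06 with the others at 10.25 to 10.26. Control 4 was apart and low for Cyp46a1 at 8.97, against 9.92 to 9.99, and for Scd2 at 14.28, against 14.67 to 14.75. Control 3 was apart and low for Srebf1, at 8.60 against 9.12 to 9.15.

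AβPP antisense 4 was apart and low for Sqle at 8.72, against 9.36 to 9.38, and AβPP antisense 2 was apart and high for Scd1 at 12.87, against 11.55 to 11.77. SAMP8 1 was apart and high for Fasn, at 10.44 against 10.30 to 10.32. Random antisense 4 was apart and high for Acaca, at 8.74 against 8.65 in each of the others.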

How the results depend on the processing

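The number of members passing the threshold was 0 in all 4 comparisons and the F test, and it stayed at 0 under every alternative run except 1. Without AβPP antisense 3, Fdps passed between AβPP antisense and SAMP8, in a fit where 1.98% of all genes passed against 0.0959%, so that leaving out single arrays gave 0 to 1 members called there. The median difference over the members between AβPP antisense and Random antisense was 0.14 log2, lay between 0.051 and 0.20 when single arrays were left out, and was 0.043 with the mean over each member's probe sets. Between AβPP antisense and SAMP8 it was 0.07, lay between 0.0029 (without AβPP antisense 4) and 0.11 when single arrays were left out, and was -0.022 with array weights and -0.060 with the mean over probe sets. The cause of these changes was not tested.

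Single members changed sign as follows. With the mean over probe sets, Hmgcs1 was -0.12 between AβPP antisense and Random antisense and -0.15 between AβPP antisense and SAMP8. With the beta-actin covariate, Fdps was 0.022 between AβPP antisense and Random antisense, and between AβPP antisense and SAMP8 Insig1 was -0.0028, Insig2 0.039 and Msmo1 0.059. With array weights, between AβPP antisense and SAMP8, Insig1 was -0.066, Insig2 0.050 and Srebf1 -0.033. The cause was not tested. Of 1847 values under 28 alternatives, 1832 were labelled as unchanged. For a single member this meant the same side of the threshold and the same direction, with no direction given within 1 standard error of 0. For a median over the members it meant a move of less than 0.087 log2, and for a count of members called it meant staying at 0. Since no member passed in the main fit and small differences had no direction, the total does not measure robustness.

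Probe sets called over the array numbered 86, 20, 0 and 69 (SAMP8 with Control, AβPP antisense with Random antisense, Random antisense with SAMP8, AβPP antisense with SAMP8), against 123, 199, 0 and 401 without the 2 least correlated arrays, 37, 0, 0 and 5 with only the 8 arrays compared, 111, 59, 0 and 72 with the beta-actin covariate, and 295, 35, 19 and 73 with array weights. Leaving out single arrays gave 54 to 115, 11 to 896, 0, and 16 to 1286, with both largest counts, 896 and 1286, without AβPP antisense 3. Quantile normalization of the deposited values moved the members with a higher mean in Random antisense than in SAMP8 from 8 to 12 of 32. The share of all genes moved from 46.6% to 50%. With array medians subtracted it was 11 of 32 members and 49.6% of genes.

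The replicate numbers were not treated as pairs in the main fit. Over 24 pairs of same-numbered arrays the correlation of deviations ran from -0.27 to 0.24, and 9 exceeded 0.1. Differently numbered arrays were not set beside them, so these values cannot decide whether the arrays are paired. With the replicate block 0 members were called in each comparison, and 71, 17, 0 and 63 probe sets. The median interval of 0.35 log2 rests on a spread shared by the 4 groups, and differences well under it were not detectable in that fit. With only the 8 arrays compared, 7 members were lower in Random antisense than in SAMP8 at an unadjusted limma p under 0.05 (7.63% of genes). At that level 1 member was higher (6.37%). In the main fit 1 was lower (0.654%) and 0 were higher (0.384%).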
